A study of Mus musculus with 18 samples.

Results

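The citrate cycle enzymes described here are 9 nuclear genes, Cs, Idh2, Idh3a, Ogdh, Dlst, Sucla2, Suclg1, Fh1 and Mdh2, taken by name from the deposited table of mouse skeletal muscle RNA. All 9 had a row among the 12558 genes of that table, and all 9 passed the filter on low values. The series held 18 libraries in 6 groups of 3, each numbered as a biological replicate. There were 4 groups of wild-type mice on normal chow (WT-NC) or a high-fat diet (WT-HFD) for 10 weeks, either plain or with a drug named only AQ that was given through the drinking water (WT-NC-AQ and WT-HFD-AQ). The remaining groups, both on HFD, were mice with a Nurr1 transgene (HFD-Nurr1-mTg) and wild-type transgenic controls (HFD-WT). The series concerns activation of NURR1, the orphan nuclear receptor encoded by Nr4a2, in muscle. Sources used here do not give the promoter of the transgene, the muscle sampled, or the age and sex of the mice.

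The citrate cycle runs in the mitochondrial matrix. It condenses acetyl-CoA from sugars, fatty acids and ketone bodies with oxaloacetate, oxidises the product back to oxaloacetate, and passes electrons to the respiratory chain through NADH and reduced flavin. Oxidative muscle fibres hold many mitochondria and high activities of its enzymes, and citrate synthase activity is a usual measure of mitochondrial content in muscle. Each enzyme below is described in the order of the cycle, with the reaction it takes part in.

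The values are CPM, read counts relative to library size as the authors scaled them. The recovered depth was 10404895 to 16082994 reads per library. A member had between 2491 and 22499 reads in a library, so counting error was mostly small beside the spread between libraries. For Ogdh in HFD-WT that spread (SD) was only 0.788% of the mean, on 17547 to 21713 reads. The members together took 0.503% to 0.731% of the reads. Nr4a2 lay at 18.8, 30.1 and 19.8 CPM in the 3 transgenic libraries and at 4.79 CPM or less in the other 15. All 10 skeletal muscle markers were abundant, with Ckm, the muscle creatine kinase, at 19100.1 CPM or more and Tcap, a sarcomere protein gene, at 1439 CPM or more in each library. Heat shock genes stood apart in WT-HFD replicate 2, where their mean log2(CPM + 1) was 1.91 above its average over libraries, against 0.34 or less elsewhere.

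Levels of different genes were compared only as mean CPM per kilobase of exon length. Mdh2 was the most abundant member at 673 CPM per kb, followed by Cs at 396, Idh3a at 336 and Ogdh at 301 CPM per kb. Sucla2 lay at 261, Suclg1 at 218, Idh2 at 164, Dlst at 152 and Fh1 at 109 CPM per kb. In plain CPM each member stood at the 96.8th percentile of the genes in the table or higher. Between the lowest and the highest of the 18 libraries the members differed by 1.27 times (Ogdh) to 1.97 times (Idh2), so none of them was switched on or off in any group.

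**Figure D1:**
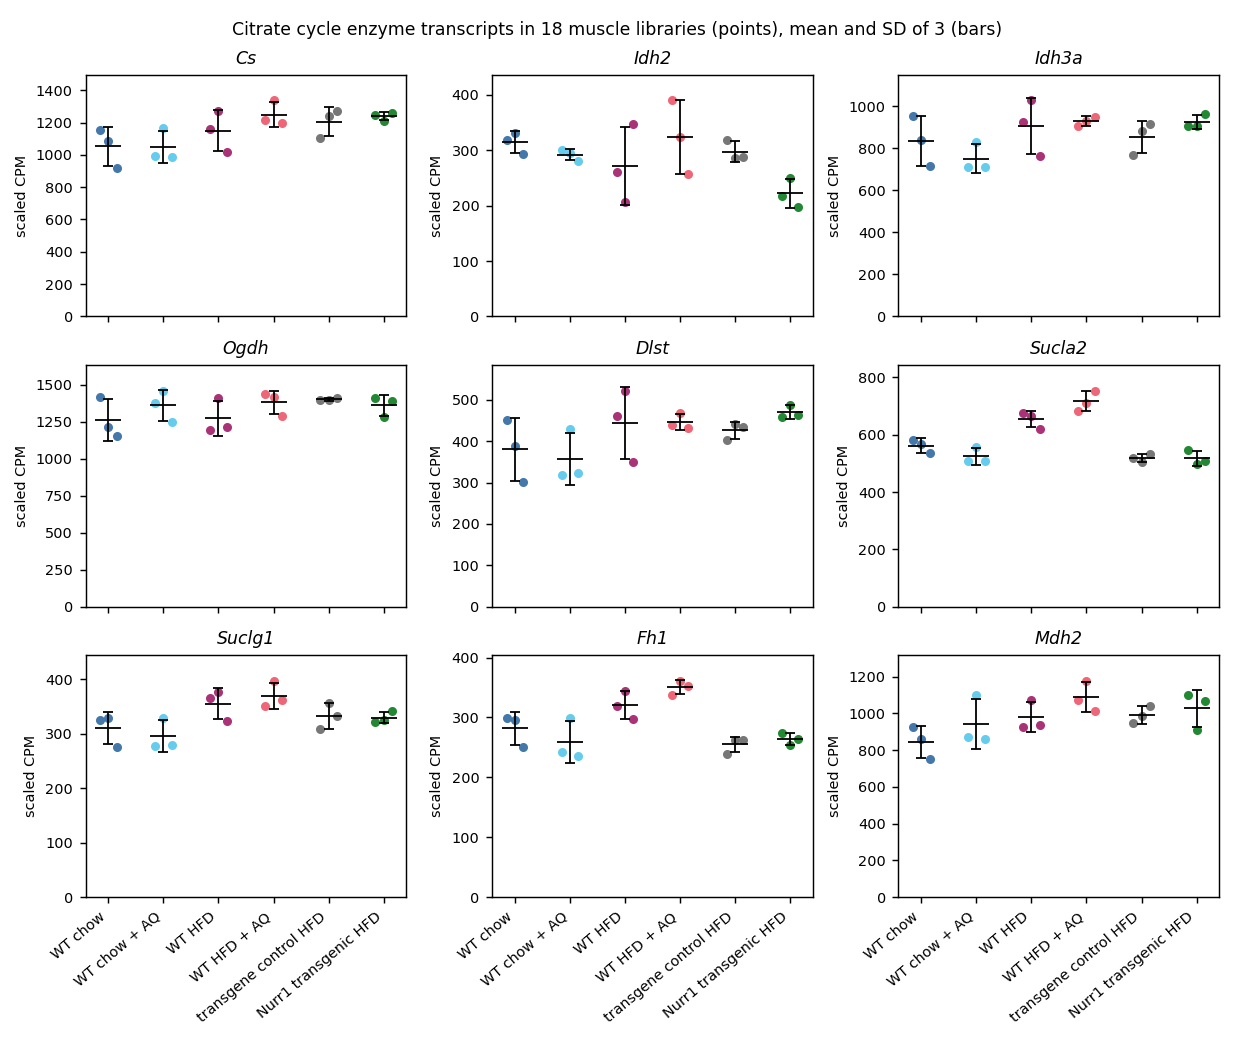
Scaled CPM (linear axis) of the 9 members in each group, where points are libraries and bars give the mean with its SD (n = 3). WT chow, WT chow + AQ, WT HFD, WT HFD + AQ, transgene control HFD and Nurr1 transgenic HFD stand for WT-NC, WT-NC-AQ, WT-HFD, WT-HFD-AQ, HFD-WT and HFD-Nurr1-mTg. Sucla2 and Fh1 have their highest means in WT-HFD-AQ and WT-HFD, and the 3 transgenic libraries of Idh2 lie below the 3 control libraries.

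A test that the 6 group means are equal called Sucla2 and Fh1 among the 9 members (limma F test, adjusted p = 0.000364 and 0.00515), against 20.0% of all genes called. Suclg1 followed with an adjusted p of 0.0804 and Idh2 with 0.0962, and the other 5 lay between 0.170 and 0.607. For Sucla2 the SD of the group means was 3.03 times the SD within groups on the log2 scale. The same ratio was 1.65 for Fh1 and 1.078 for Suclg1, and 0.61 to 0.92 for the others. Idh2 and Suclg1 also passed when WT-HFD replicate 3 was left out (adjusted p = 0.0167 and 0.0471), and Idh2 without WT-HFD-AQ replicate 3 and Suclg1 without WT-NC-AQ replicate 2 (adjusted p = 0.0455 and 0.0366). With all libraries, Suclg1 passed this limma test with each library rescaled to the same sum (adjusted p = 0.0421) and with a replicate block (0.0363), and Idh2 with the GC trend removed (0.0408).

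Cs encodes citrate synthase, which joins acetyl-CoA and oxaloacetate. Its means ran from 1049 ± 101 CPM (SD, n = 3) in WT-NC-AQ and 1052 ± 123 in WT-NC to 1250.2 ± 76 in WT-HFD-AQ. WT-HFD lay at 1151 ± 128, HFD-WT at 1206 ± 90.7 and HFD-Nurr1-mTg at 1239 ± 24.99 CPM. Neighbouring groups in this order overlapped throughout. The lowest library was WT-NC replicate 3 at 916 CPM and the highest WT-HFD-AQ replicate 2 at 1338 CPM.

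Isocitrate is oxidised to 2-oxoglutarate by an NAD-dependent enzyme, whose catalytic subunit is Idh3a, and by the NADP-dependent enzyme of Idh2. Idh3a averaged 752 ± 68.0 CPM in WT-NC-AQ, 836 ± 119 in WT-NC, 856 ± 75.8 in HFD-WT, 907 ± 132 in WT-HFD, 926 ± 33.7 in HFD-Nurr1-mTg and 929 ± 23.0 in WT-HFD-AQ. Neighbours in that order overlapped. Idh2 had another order, with its highest mean in WT-HFD-AQ (324 ± 66.4 CPM), then WT-NC (314 ± 19.9), HFD-WT (298 ± 18.7), WT-NC-AQ (292 ± 10.3), WT-HFD (272 ± 71.1) and HFD-Nurr1-mTg (222 ± 26.4). Its spread was widest in WT-HFD, at 260.2, 207 and 348 CPM in replicates 1, 2 and 3.

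Ogdh and Dlst encode the first and second components of the 2-oxoglutarate dehydrogenase complex, which makes succinyl-CoA. Ogdh varied least of the members between groups, from 1262 ± 140 CPM in WT-NC to 1399.96 ± 11.03 in HFD-WT. Dlst ranged from 357 ± 63.4 CPM in WT-NC-AQ to 470.0 ± 16.4 in HFD-Nurr1-mTg, with 380.3 ± 76.2 in WT-NC, 427 ± 20.8 in HFD-WT, 444 ± 88.0 in WT-HFD and 447 ± 19.7 in WT-HFD-AQ. The group means of Dlst differed by less than its widest spread between replicates, where WT-HFD libraries reached from 349 to 522 CPM.

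Succinyl-CoA is split by succinyl-CoA synthetase, which gains an ATP or a GTP for each turn. Suclg1 encodes its alpha subunit, and Sucla2 the beta subunit of the ATP-forming enzyme. Sucla2 lay at 684, 711.5 and 754 CPM in WT-HFD-AQ, at 674, 665 and 622 in WT-HFD, and at 583, 569 and 535 in WT-NC. These 3 groups did not overlap. The remaining groups did overlap with each other, at 508, 558 and 508 CPM in WT-NC-AQ, 519, 506 and 534 in HFD-WT, and 547, 497 and 508.5 in HFD-Nurr1-mTg. Suclg1 lay at 350.2, 397 and 361 CPM in WT-HFD-AQ, 365, 377 and 323 in WT-HFD, 325, 329 and 276 in WT-NC, and 278, 329 and 279.7 in WT-NC-AQ. Only the highest WT-NC-AQ library came near the WT-HFD-AQ libraries, and it stayed below all 3 of them. HFD-WT and HFD-Nurr1-mTg lay between, at 332 ± 23.9 and 329 ± 10.3 CPM.

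Fh1 encodes fumarase, which hydrates fumarate to malate. It lay at 338, 361 and 352.5 CPM in WT-HFD-AQ, at 318.5, 344 and 298 in WT-HFD, and at 299, 296 and 250.5 in WT-NC. In WT-NC-AQ it lay at 242, 299 and 235 CPM, in HFD-WT at 239.8, 263 and 263, and in HFD-Nurr1-mTg at 275, 254 and 263. The order of the group means of Fh1 thus began as that of Sucla2 did, and each neighbouring pair of its groups overlapped. Mdh2 encodes the mitochondrial malate dehydrogenase, which restores oxaloacetate. Its means were 846 ± 87.2 CPM in WT-NC, 944 ± 137 in WT-NC-AQ, 981 ± 81.5 in WT-HFD, 992 ± 46.9 in HFD-WT, 1028 ± 102 in HFD-Nurr1-mTg and 1088 ± 81.6 in WT-HFD-AQ.

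The genes of Fh1 and Sucla2 lie on different chromosomes, Fh1 on chromosome 1 from 175600374 to 175625635 (minus strand) and Sucla2 on chromosome 14 from 73525319 to 73596142 (plus strand), both protein-coding (GRCm38). They are the members that differed most between groups in the F test. Single comparisons called them between WT-HFD-AQ and WT-NC-AQ and between the wild-type HFD groups. For the transgene neither was called, with log2 fold changes of -0.01 for Sucla2 and 0.05 for Fh1. A part of NURR1 in their differences was not tested. NURR1 binds DNA as a monomer at the NBRE, AAAGGTCA, which contains the nuclear receptor half-site AGGTCA. The sequence upstream of the RefSeq starts (GRCm38.p6) of Fh1 and Sucla2 is shown. It is read on the strand of the gene, with capitals for the half-site AGGTCA, the CCAAT box, the Sp1 site GGGCGG and, in the last window, the NRF1 site, each in either orientation. The 250 bases before the start of Fh1 are given whole and 2 windows of 30 bases from Sucla2.
Fh1, chr1:175625636-175625885, minus strand: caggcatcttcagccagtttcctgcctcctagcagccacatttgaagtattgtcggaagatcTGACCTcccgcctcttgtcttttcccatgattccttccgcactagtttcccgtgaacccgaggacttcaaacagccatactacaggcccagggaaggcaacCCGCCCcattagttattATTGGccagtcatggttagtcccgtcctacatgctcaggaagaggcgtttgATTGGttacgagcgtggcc
Sucla2, chr14:73552615-73552644, plus strand: cacatgtcactgAGGTCAaagttctgaagg
Sucla2, chr14:73552756-73552785, plus strand: caactgcgtctctGCGCCTGCGCggtgccc
The RefSeq start used for Sucla2 lies inside the longer gene span of the GENCODE annotation.

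Both strands of the 250 bases before each start were searched in 8 members found in the RefSeq table, and in all 32851 promoters of that table. Idh3a had no entry there. A member was counted if any of its starts had a match, and Ogdh had several starts, whereas the percentages are of single promoters. AAAGGTCA was present in 1.34% of all promoters and in 0 of the 8 members, and the shorter AGGTCA in 14.02% of all promoters and, of the members, in Fh1 and Sucla2. The NRF1 site was present in 3.74% of all promoters and in Sucla2 alone of the 8. CCAAT was present in 33.8% of all promoters and in Cs, Fh1, Idh2 and Ogdh, GGGCGG in 32.7% and in 7 members, all but Suclg1, and the E-box CACGTG in 6.02% and in Ogdh. The oestrogen-related receptor site TNAAGGTCA, which also contains AGGTCA, was present in 1.14%, and the ETS site CCGGAAG in 6.91%, each in 0 of the 8. A match in these windows is a description of the letters and does not show binding.

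The clearest difference of the members was between the HFD and chow groups that both had AQ. In WT-HFD-AQ against WT-NC-AQ, Sucla2 rose by 1.36 times (log2 fold change 0.45 ± 0.07, SE, limma adjusted p = 0.000793), Fh1 by 1.36 times (0.45 ± 0.09, adjusted p = 0.00511) and Suclg1 by 1.25 times (0.32 ± 0.09, adjusted p = 0.0282). These 3 of 9 members were called, all higher, where 10.6% of all genes were called, 4.89% higher and 5.68% lower. With each library rescaled to the same sum, 833 of 1208 called genes were higher in place of 613 of 1324. All 9 log2 fold changes were above 0, with a median of 0.31 against -0.00 over all genes. In bulk muscle, more RNA of a gene per fibre and a larger share of fibres that hold it cannot be told apart.

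The 6 members that did not pass in WT-HFD-AQ against WT-NC-AQ had smaller or less even differences. Idh3a was at 905, 932 and 951 CPM in WT-HFD-AQ and at 713, 830.1 and 711 in WT-NC-AQ, with a log2 fold change of 0.31 and a 95% interval from 0.07 to 0.55 (limma adjusted p = 0.0904). Cs (0.26, interval 0.04 to 0.48, adjusted p = 0.130) and Dlst (0.33, interval 0.03 to 0.64, adjusted p = 0.156) also had groups that did not overlap. In all, 6 of 9 members had groups that did not overlap, all with the HFD group higher, against 33.2% of all genes. The groups of the other 3 overlapped, with 0.21 for Mdh2, 0.13 for Idh2 (interval -0.19 to 0.45) and 0.02 for Ogdh (interval -0.18 to 0.22).

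The calls of Sucla2 and Fh1 in this comparison were kept under each alternative and without each of the 6 libraries. Suclg1 was lost without WT-NC-AQ replicate 1 (limma adjusted p = 0.114), WT-NC-AQ replicate 3 (0.123), WT-HFD-AQ replicate 2 (0.109) or WT-HFD-AQ replicate 3 (0.0700), and with the GC trend of each library removed (0.0879). Idh3a passed with each library rescaled to the same sum (0.0483) and with only these groups in the fit (0.0287). edgeR and DESeq2 on the recovered reads each called 3 members.

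**Figure D2:**
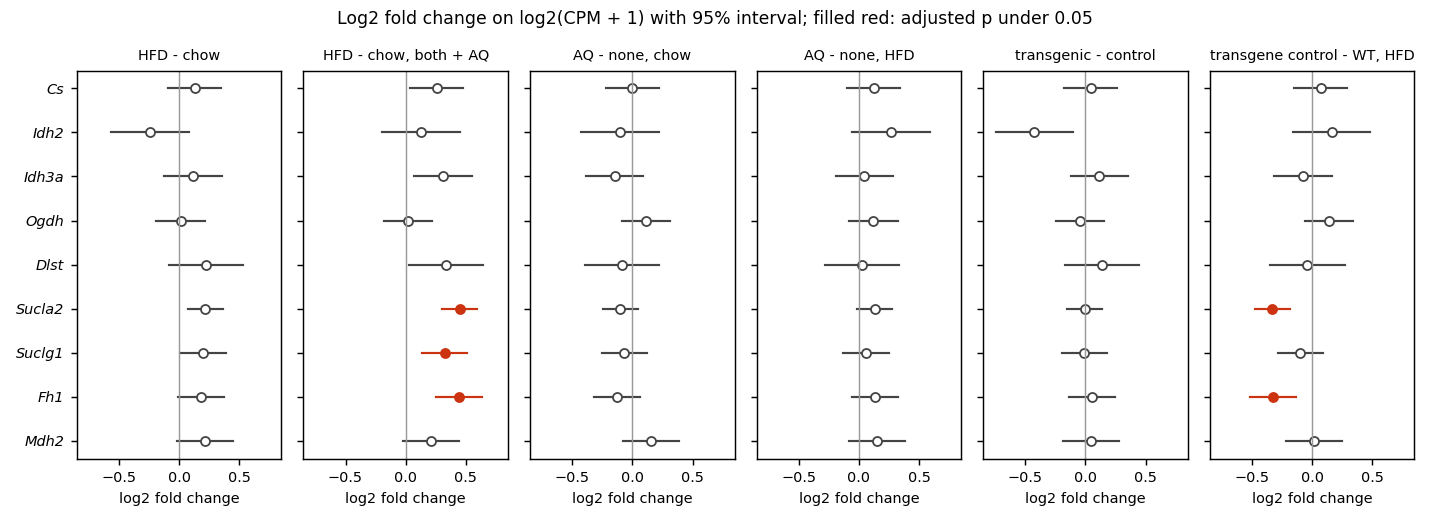
Log2 fold change of each member on the log2(CPM + 1) scale in each comparison, with bars for the 95% interval from the limma fit. The intervals of Sucla2, Fh1 and Suclg1 lie farthest above 0 in WT-HFD-AQ against WT-NC-AQ, and that of Idh2 lies below 0 for the transgene.

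HFD against chow without AQ, which shares no library with the comparison above, called 0 of 9 members, where limma called 0.0479% of all genes. At an unadjusted p under 0.05 there were 2 members, Sucla2 and Suclg1, and edgeR and DESeq2 each called 0. Sucla2 was at 654 ± 28.1 CPM in WT-HFD and 562 ± 24.9 in WT-NC, a log2 fold change of 0.22 ± 0.07 with an interval from 0.07 to 0.36 (limma adjusted p = 0.350), and 0.18 to 0.25 with a library left out. The interval of Suclg1 ran from 0.01 to 0.39 around 0.20 (adjusted p = 0.498) and that of Fh1 from -0.01 to 0.38 around 0.18 (adjusted p = 0.539). Of the 9 log2 fold changes 8 were above 0, with a median of 0.18, which fell to 0.06 without WT-NC replicate 3. The exception was Idh2 at -0.24 (interval -0.56 to 0.08). Groups of Sucla2 and Mdh2 did not overlap, 2 of 9 members against 12.4% of all genes.

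For AQ, limma called 0 of 9 members on either diet. These comparisons share WT-NC or WT-HFD libraries with that of the diets and WT-NC-AQ or WT-HFD-AQ libraries with that of the AQ groups, so their values are given side by side only. On chow, WT-NC-AQ against WT-NC, limma called 1.11% of all genes and 0 members, and edgeR and DESeq2 also called 0. None of the 9 reached an unadjusted p under 0.05. The log2 fold changes ran from -0.15 for Idh3a (interval -0.39 to 0.09) to 0.15 for Mdh2 (interval -0.08 to 0.38), and 2 of 9 were above 0. On HFD, WT-HFD-AQ against WT-HFD, limma called 0.0479% of all genes and 0 members. At an unadjusted p under 0.05 edgeR and limma had 0 members and DESeq2 had 1, and neither count test called any. All 9 log2 fold changes lay above 0 there, from 0.03 for Dlst to 0.27 for Idh2 (interval -0.06 to 0.59), with a median of 0.12. Without WT-HFD replicate 3, however, 3 of them lay below 0, Dlst at -0.14, Idh3a at -0.07 and Suclg1 at -0.0080, and Dlst lay at -0.0078 without WT-HFD-AQ replicate 2. Sucla2 was the member whose groups did not overlap on HFD, with 0.13 and an interval from -0.01 to 0.28, while 16.3% of all genes had such groups.

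The difference between the AQ effects on the diets was tested as an interaction, which is also the difference between the diet effects with and without AQ. It called 0 of 9 members, where limma called 0.711% of all genes, and edgeR and DESeq2 called 0 members. Sucla2 was the member with an unadjusted p under 0.05, at 0.23 ± 0.10 (interval 0.03 to 0.44, limma adjusted p = 0.296). Fh1 was at 0.26 (interval -0.01 to 0.53, adjusted p = 0.368) and Idh2 at 0.37 (interval -0.09 to 0.83, adjusted p = 0.454). The passing of 3 members in the AQ groups and of 0 without AQ was therefore not shown to be a difference between them.

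For the transgene limma called 0 of 9 members and 0.599% of all genes, and edgeR and DESeq2 called 0 members. Idh2 was the member with an unadjusted p under 0.05. It lay at 218, 250.4 and 198 CPM in HFD-Nurr1-mTg and at 319, 286 and 288 in HFD-WT, without overlap. Its log2 fold change was -0.42 ± 0.15 (interval -0.75 to -0.10, limma adjusted p = 0.347), and the adjusted p ranged from 0.0964 to 0.580 over the alternatives. Dlst also had groups that did not overlap, at 459, 489 and 463 CPM against 403, 442 and 435.5 (log2 fold change 0.14, interval -0.17 to 0.45), making 2 of 9 members against 14.3% of all genes. The remaining 7 log2 fold changes ran from -0.04 for Ogdh to 0.12 for Idh3a, and Sucla2 was at -0.01 with an interval from -0.15 to 0.14.

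**Figure D3:**
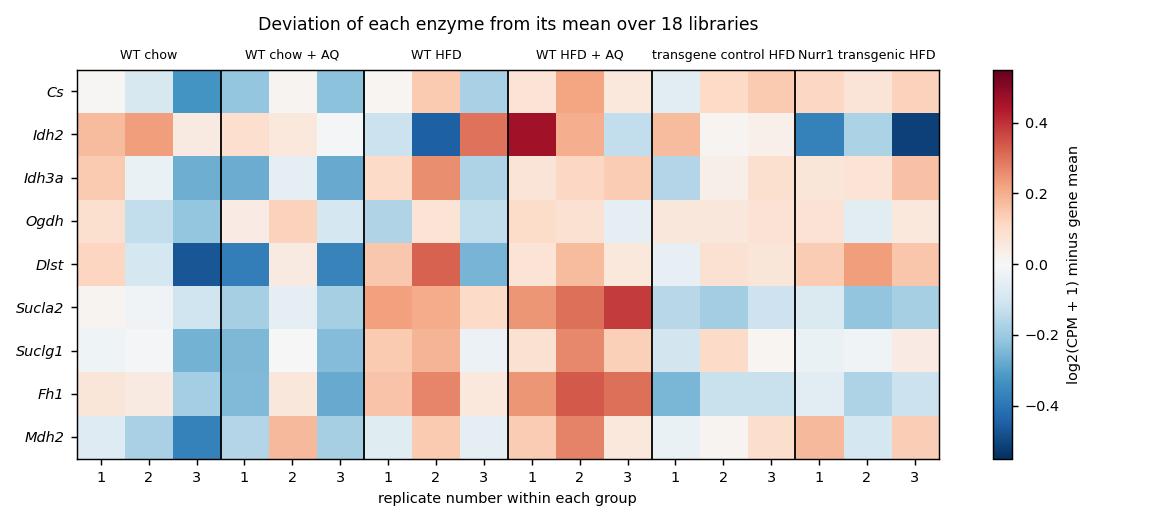
Log2(CPM + 1) of each member in each library as the difference from the gene's mean over 18 libraries, with libraries ordered by group. Sucla2 and Fh1 are above their means in all WT-HFD-AQ and WT-HFD libraries, and Suclg1 in all of these except WT-HFD replicate 3. Idh2 is lowest in the transgenic libraries and WT-HFD replicate 2, and is also low in WT-HFD replicate 1 and WT-HFD-AQ replicate 3.

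The wild-type HFD groups were also set against each other, since HFD-WT is the control of the transgene and WT-HFD that of AQ. In HFD-WT against WT-HFD, Sucla2 fell by 0.33 on the log2 scale (SE 0.07, limma adjusted p = 0.0119) and Fh1 fell by 0.33 (SE 0.09, adjusted p = 0.0486). These 2 of 9 members were called lower, where 4.46% of all genes were called, 2.78% higher and 1.68% lower, and each had groups that did not overlap, as did 23.0% of all genes. With each library rescaled to the same sum, 177 of 395 called genes were higher in place of 348 of 559. The other 7 members ran from -0.10 for Suclg1 to 0.16 for Idh2. Other lists also differed here, and their part in these calls was not tested. Of the 22 respiratory chain genes 21 lay below 0, with a median log2 fold change of -0.22 and 2 called lower, Ndufa4 and Ndufs1. Of the 10 other citrate cycle genes 9 lay below 0 (median -0.22, 0 called), and of the 9 slow and oxidative fibre genes 8 (median -0.35, 0 called). All 7 heat shock genes lay below 0 (median -0.46), with Hspa8 called lower. The median of all genes was -0.00. Sources used here do not give the strain background or cohort of the transgenic controls, so line, cohort and batch cannot be told apart in this comparison.

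Both calls between the wild-type HFD groups depended on single libraries and settings. Sucla2 was lost without WT-HFD replicate 2 (limma adjusted p = 0.0626), which held the high heat shock genes, without HFD-WT replicate 2 (0.0572), with only these groups in the fit (0.0919) and with the GC trend removed (0.0701). Fh1 was lost without WT-HFD replicate 1 (0.0981) or replicate 2 (0.218), without each of the HFD-WT replicates (0.0820 to 0.154), in edgeR (0.0526) and under both other scalings (0.0538 with equal library sums and 0.0501 with median-of-ratios scaling). It was lost too with only these groups in the fit (0.106) and with the GC trend removed (0.0833).

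The rest of the cycle was followed in lists of related genes. In WT-HFD-AQ against WT-NC-AQ, 8 of the 10 other citrate cycle genes were called higher, against 4.89% of all genes. Of the 10, 9 lay above 0, with a median log2 fold change of 0.39 against -0.00 over all genes. Dld, the third component of the 2-oxoglutarate and pyruvate dehydrogenase complexes, rose from 312 ± 31.4 to 463 ± 22.2 CPM (0.57 ± 0.10, limma adjusted p = 0.0017). The 4 subunits of succinate dehydrogenase all rose, Sdha by 0.42, Sdhb by 0.55, Sdhc by 0.36 and Sdhd by 0.52. The other subunits of NAD-dependent isocitrate dehydrogenase, Idh3b (0.42) and Idh3g (0.37), rose as well, while the catalytic Idh3a at 0.31 did not pass. Suclg2, the beta subunit of the GTP-forming synthetase, rose by 0.31 from 35.4 ± 1.88 to 44.3 ± 2.76 CPM. Ogdhl, an Ogdh relative at 2.45 CPM on average, was at -0.18 and did not pass. Exons of Idh3b overlap a gene on the opposite strand, so its values may include reads of that gene. Without WT-NC-AQ replicate 1, WT-NC-AQ replicate 3 or WT-HFD-AQ replicate 3, 5 of the 10 were called higher, among them Dld, Idh3b, Sdha and Sdhb each time. Without each of the other 3 libraries 8 were called higher.

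Of 7 genes that bring pyruvate into the cycle, 5 were called higher and 1 lower in the same comparison. Of all genes 4.89% were called higher and 5.68% lower. The pyruvate dehydrogenase genes Pdha1 (0.46), Pdhb (0.47), Dlat (0.54) and Pdhx (0.50) and the pyruvate carrier gene Mpc2 (0.38) rose. Pcx, the pyruvate carboxylase that makes oxaloacetate directly, fell by 0.58 from 149 ± 17.2 to 99.35 ± 12.01 CPM (SE 0.16, limma adjusted p = 0.0244). Pdhx alone passed in this list without WT-NC-AQ replicate 1 or replicate 3, Pdhx and Pcx without WT-HFD-AQ replicate 2, Pdhx and Mpc2 without WT-HFD-AQ replicate 3, and Pdha1, Pdhb and Pdhx without WT-HFD-AQ replicate 1. Pcx and Mpc2 were lost with the GC trend removed, and exons of Pdha1 overlap a gene on the opposite strand.

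Among 6 cytosolic partners of the cycle enzymes 2 were called, both higher, against 4.89% of all genes. Mdh1, the cytosolic malate dehydrogenase, rose by 0.70 and Idh1, the cytosolic isocitrate dehydrogenase, by 0.54. Mdh1 was at 953 ± 9.59 CPM in WT-HFD-AQ and 597 ± 129.6 in WT-NC-AQ, and its call was lost without WT-NC-AQ replicate 1 or 3 or WT-HFD-AQ replicate 3. Of 13 genes of anaplerosis and metabolite carriers 2 were called, a share near the 10.6% of all genes. Slc25a11, the oxoglutarate carrier, rose by 0.43 and Glud1, glutamate dehydrogenase, by 0.27, and both were lost without any of WT-NC-AQ replicates 1 and 3 and WT-HFD-AQ replicates 2 and 3. Of 22 nuclear genes of the respiratory chain 14 were called higher, against 4.89% of all genes, and 21 lay above 0, with a median of 0.43. With a library left out 5 to 19 were called higher, fewest without WT-NC-AQ replicate 3 (5) or replicate 1 (6).

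**Figure D4:**
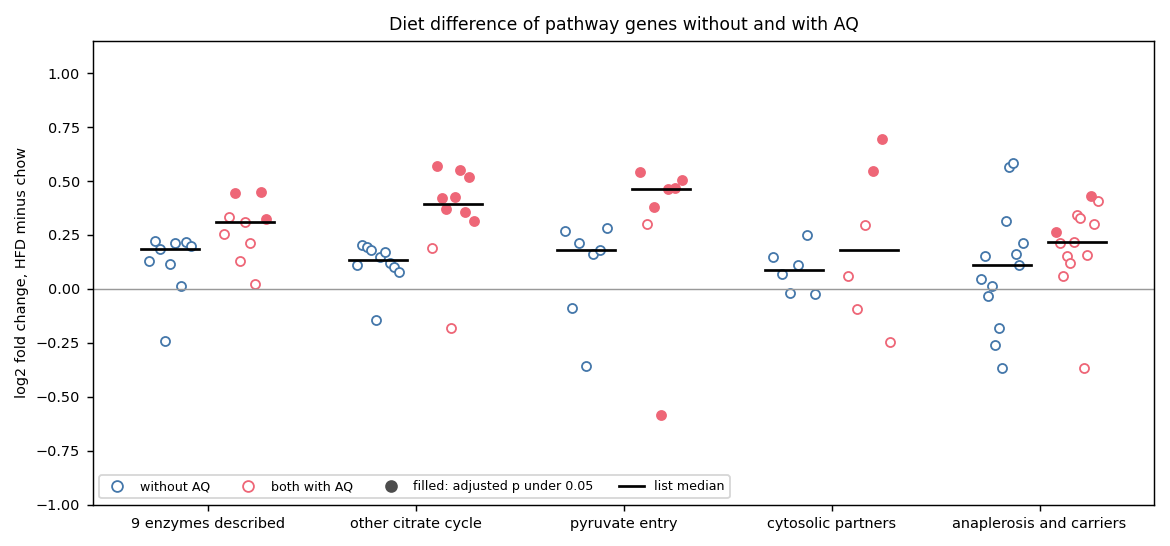
Log2 fold change on the log2(CPM + 1) scale of the members and of the genes in the 4 pathway lists, in HFD against chow without AQ (blue) and with AQ (red), where points are genes, filled points passed the threshold on the adjusted p and lines are list medians. With AQ 3 members and 8 of the 10 other citrate cycle genes are filled, and without AQ no point is.

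Of all genes limma called 0.0479% for diet without AQ, 1.11% for AQ on chow, 0.0479% for AQ on HFD and 0.599% for the transgene. In each of these comparisons it called 0 of the 36 genes in the 4 lists of pathway genes. Those with the smallest p included Pdhx (log2 fold change 0.28, limma adjusted p = 0.381) and Idh3b (0.19, adjusted p = 0.496) in HFD against chow, and Idh3g (0.26, adjusted p = 0.194) and Suclg2 (0.22, adjusted p = 0.212) for AQ on HFD. Slc25a1, the mitochondrial citrate carrier, came closest for AQ on chow, at 5.79 ± 0.52 CPM against 3.38 ± 0.46 (0.64 ± 0.15, adjusted p = 0.05001, above the threshold), and it passed in DESeq2, with a pseudocount of 0.25, with a filter of 5 CPM and with median-of-ratios scaling. Its interaction of AQ and diet was -0.93 ± 0.21 (limma adjusted p = 0.0522), and this passed with a pseudocount of 0.25, in DESeq2 and without WT-HFD replicate 1. Between the wild-type HFD groups limma called 1 of the 36 genes, a share below the 4.46% of all genes. This was Slc25a1, higher in HFD-WT at 10.3 ± 2.14 CPM than in WT-HFD at 5.51 ± 1.078 (0.79 ± 0.15, limma adjusted p = 0.00657). There Dld was at -0.35 (adjusted p = 0.0517) and Idh3b at -0.30 (adjusted p = 0.0568), both with groups that did not overlap.

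Markers of other cells and of fibre type were measured beside the differences between WT-HFD-AQ and WT-NC-AQ, where 10.6% of all genes were called. The 10 skeletal muscle genes summed to 141801 to 151605 CPM in WT-HFD-AQ and 166677 to 188632 CPM in WT-NC-AQ, without overlap, with 7 of 10 below 0, a median log2 fold change of -0.22 and 2 called lower, Des and Pygm. The 9 fast fibre genes, some of them also in that list, summed to 122576 to 132823 CPM and 136752 to 161011 CPM, with 6 of 9 below 0 and 0 called. Mean deviations of the 9 slow and oxidative fibre genes were -0.26 to 0.18 in WT-NC-AQ and 0.03 to 0.51 in WT-HFD-AQ. Of the 9, 7 lay above 0 and 1, the myoglobin gene Mb, was called higher, a share near that of all genes. The 9 fibroblast and matrix genes summed to 1783 to 2341 CPM in WT-NC-AQ and 1438 to 1940 CPM in WT-HFD-AQ, with 3 lower and 1 higher. The 8 leukocyte genes measured summed to 168 to 240 CPM and 127 to 139 CPM, without overlap, and 1 was called lower. All 8 lay below 0, with a median log2 fold change of -0.42. The 10 adipocyte genes summed to 2628 to 2683 and 2126 to 2582 CPM, with 6 of 10 below 0 and 1 called higher. Car3 made up most of that sum, at 1833 CPM or more in each library. Mean deviations of the 10 adipocyte genes overlapped, at -0.49 to -0.24 in WT-NC-AQ and -0.71 to 0.15 in WT-HFD-AQ. The shares called in both lists were near that of all genes. Of the 7 endothelial genes 5 lay above 0, with a median log2 fold change of 0.09 and 0 called. Of the 5 Schwann and nerve genes 4 lay below 0, with a median of -0.11 and 0 called. No marker was at 0 in any library. The part of these markers in the differences of the cycle genes was not tested.

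Within groups, 8 of the members went up and down together and Idh2 did not. Over the 18 libraries, which share their depth and scaling, 27 of the 28 pairs without Idh2 had a Pearson r above 0, with a median of 0.66. As deviations from the group means their r ran from 0.40 to 0.94, with a median of 0.75. The 8 pairs with Idh2 had a median r of -0.19, with 2 above 0, and as deviations from the group means all 8 lay between -0.50 and -0.10. The mean deviation of the 9 members was lowest in WT-NC replicate 3, at -0.24, and in WT-NC-AQ replicates 3 and 1, at -0.21 and -0.17. The same 3 libraries lay apart from the remaining chow libraries, at -0.03 to 0.06, and the WT-HFD-AQ libraries lay at 0.10 to 0.22.

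The 22 respiratory chain genes had mean deviations of 0.23 to 0.33 in WT-HFD-AQ and -0.04 to 0.25 in WT-HFD, which overlapped. They lay at -0.23 to 0.10 in WT-NC-AQ, -0.22 to 0.06 in WT-NC, -0.20 to -0.03 in HFD-WT and -0.18 to -0.03 in HFD-Nurr1-mTg. The ratio of Idh3a to Idh2, the NAD-dependent over the NADP-dependent isocitrate dehydrogenase, was looked at after its values were seen and was not tested. As CPM per kb it was 2.80, 2.45 and 3.30 in HFD-Nurr1-mTg and 1.63, 2.09 and 2.15 in HFD-WT, without overlap. In WT-HFD the ratio was 2.41, 3.36 and 1.49, which spans both of those groups, and in WT-HFD-AQ it was 1.57, 1.94 and 2.50. The chow libraries lay between 1.60 and 2.02, so the widest spread of the ratio was among wild-type mice on HFD without AQ. The ratio of the ATP-forming to the GTP-forming beta subunit of succinyl-CoA synthetase was taken as Sucla2 over Suclg2 per kb and was not tested. It lay between 23.2 and 30.9 in all 18 libraries. In WT-HFD it was 30.9, 28.4 and 27.9, and in WT-NC 26.9, 26.2 and 26.0, without overlap. Values of 27.0, 28.2 and 26.8 in WT-HFD-AQ and 25.7, 25.5 and 23.8 in WT-NC-AQ did not overlap either. HFD-WT (24.5, 23.2 and 27.3) lay below WT-HFD and overlapped HFD-Nurr1-mTg (28.3, 25.6 and 28.5).

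**Figure D5:**
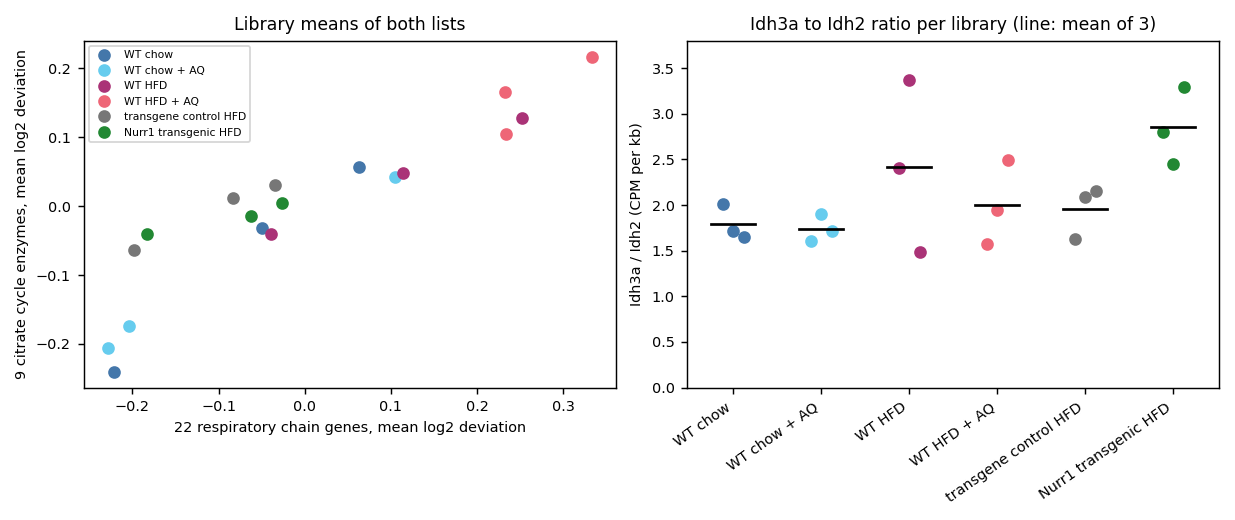
The left plot gives, for each of the 18 libraries (points, coloured by group), the mean log2 deviation of the 9 citrate cycle enzymes against that of 22 respiratory chain genes, and the right plot gives the ratio of Idh3a to Idh2 in CPM per kb by group, with a line at the mean of 3. The WT-HFD-AQ libraries and WT-HFD replicate 2 lie at the upper right of the left plot. The transgenic libraries lie above those of their controls in the right plot.

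The genes whose pattern over the 18 libraries was most like the mean of the members were Atp5g3 (Pearson r 0.96), an ATP synthase gene, Cyc1 (0.95), the cytochrome c1 gene, and Ckmt2 (0.95), the mitochondrial creatine kinase of muscle. Ndufs8, Slc25a11, Ndufb5, Atp5b, Cox6b1, Mb and Atp5a1 completed the 10 most alike, with r of 0.93 to 0.95. For single members the most alike gene was Ndufs1 for Sucla2 (0.97), Uqcrc2 for Fh1 (0.99), Cyc1 for Suclg1 (0.96), Uqcrc1 for Mdh2 (0.91), Ndufa8 for Cs (0.94), Ndufaf1 for Idh3a (0.95), Phb for Dlst (0.97) and Abca2 for Ogdh (0.86). For Idh2 it was Nnt (0.83), the mitochondrial transhydrogenase, which like Idh2 makes NADPH. These are descriptions over 18 libraries chosen as the highest of all genes.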

How the data were processed

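RNA of mouse skeletal muscle was isolated in TRIzol and sequenced from a single end for 50 bases, per the labels' protocols. TopHat2 2.0.12, edgeR and the builds GRCm38 and mm10 are named in the submitters' processing notes, while the counting tool, annotation, strand use and gene filter stand as not given in the sources used here. A scaled CPM signal was deposited by the authors for 12558 genes, and its columns sum to between 929993 and 1071538. All values (100%, within a tolerance of 1e-06) were whole reads times a factor per library, and this factor was that of TMM scaling recomputed on those reads. The floor of 3 reads corresponds to 0.191 to 0.277 CPM and reflects counting error alone.

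Groups came from the labels. Log2(CPM + 1) values of 12524 genes, at 1 CPM or more in at least 3 libraries, were fitted with limma 3.58.1 in R 4.3.3 (lmFit, eBayes with trend, 6 groups in a single fit, 12 residual degrees of freedom, two-sided). P-values were adjusted by Benjamini-Hochberg across all tested genes, and 0.05 was the threshold. Because of the added 1, log2 fold changes of low genes are understated. The p-values set differences of group means against the spread between libraries within groups, pooled over all 6 groups and moderated across genes. On the recovered reads edgeR 4.0.16 (quasi-likelihood) called 5, 146, 6 and 81 genes and DESeq2 1.42.0 called 47, 280, 143 and 171 for diet, AQ on chow, AQ on HFD and the transgene, where limma called 6, 139, 6 and 75. Between the diets with AQ the counts were 1282, 1399 and 1324. The fits were tested on simulated data.

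The members and gene lists were chosen with earlier results of these data known. All members were named in each comparison, with the pathway genes past the threshold or, in their absence, up to 2 per list with the smallest p. Exon lengths, GC content (12489 genes, 465 of them by older symbols) and gene positions are from GENCODE M21 (GRCm38), and promoters from RefSeq (GRCm38.p6). No exon of a member overlaps another gene. Of 50-base windows in their exons 2.01% for Cs, 0.329% for Dlst and 0.258% for Suclg1 also occur in other genes, which could split reads, and 0 for the others. Alternatives were pseudocounts of 0.25 and 4, no filter or a filter of 5 CPM, other scalings, a fit of the compared groups alone, a replicate block, edgeR, DESeq2, taking out the GC trend per library (loess, span 0.3) and leaving out each library. The labels give no batch. The values of 1 gene in the pathway lists are not reported here.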

Additional observations from a re-analysis of the deposited data

How the results depend on the processing

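With 3 libraries a group, single libraries moved the counts of genes past the threshold, and the cause was not tested. With any library left out, limma called 0 to 40 genes for diet, 13 to 113 for AQ on chow, 0 to 224 for AQ on HFD, 43 to 72 for the transgene, 3 to 103 for the interaction, 573 to 1130 for diet with AQ, 145 to 748 between the wild-type HFD groups and 1853 to 2826 for any group. Members called ranged from 2 to 3 for diet with AQ, 0 to 2 between the wild-type HFD groups and 2 to 4 for any group, and were 0 in the other comparisons. Median member log2 fold changes ran from 0.063 to 0.24 for diet, -0.15 to -0.02 for AQ on chow, 0.08 to 0.15 for AQ on HFD, -0.01 to 0.07 for the transgene, 0.059 to 0.27 for the interaction, 0.26 to 0.38 for diet with AQ and -0.16 to 0.02 between the wild-type HFD groups.

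Under other settings the counts of genes moved by over 1.5 times in these cases. For diet they were 3 with equal library sums, 2 with only the compared groups and 47 in DESeq2. For AQ on chow they were 43, 13 and 280 under the same settings and 18 with the GC trend removed. For AQ on HFD 1 gene passed with only the compared groups and 143 in DESeq2, and for the transgene 171 in DESeq2. For the interaction they were 32 with equal library sums, 229 in DESeq2 and 25 with the GC trend removed. Between the wild-type HFD groups 96 genes passed with only the compared groups and 273 with the GC trend removed. Members called there were 1 with equal library sums, with median-of-ratios scaling and in edgeR, and 0 with only the compared groups and with the GC trend removed.

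The members that changed sign were uncalled in the comparison concerned. With the GC trend removed these were Ogdh for diet (-0.0035), Cs for AQ on chow (0.018), and Mdh2 for the interaction (0.032) and between the wild-type HFD groups (-0.00398). With equal library sums they were Sucla2 and Suclg1 for the transgene (0.028 and 0.026) and Mdh2 for the interaction (0.072) and between the wild-type HFD groups (-0.021). With a library left out, ranges that crossed 0 were -0.064 to 0.099 for Ogdh in diet, and for AQ on chow -0.099 to 0.070 for Cs and -0.24 to 0.051 for Dlst. For AQ on HFD they were -0.14 to 0.15 for Dlst, -0.072 to 0.14 for Idh3a and -0.0080 to 0.10 for Suclg1. For the transgene they were -0.021 to 0.082 for Cs, -0.0053 to 0.13 for Mdh2, -0.048 to 0.021 for Sucla2 and -0.062 to 0.042 for Suclg1. For the interaction they were -0.052 to 0.27 for Dlst, -0.070 to 0.11 for Mdh2 and -0.078 to 0.085 for Ogdh, and for diet with AQ -0.016 to 0.28 for Idh2 and -0.040 to 0.073 for Ogdh. Between the wild-type HFD groups they were -0.015 to 0.15 for Cs, -0.20 to 0.088 for Dlst, -0.017 to 0.36 for Idh2, -0.19 to 0.018 for Idh3a and -0.020 to 0.085 for Mdh2.

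Deviations from group means of same-numbered libraries had r of -0.21 to 0.31. With 3 libraries a group, such values cannot show whether the replicate numbers pair the libraries. With a replicate block 12 genes passed for diet and 49 for AQ on HFD, other counts of genes stayed within 1.5 times, and the members called numbered 3 for diet with AQ, 2 between the wild-type HFD groups and 3 for any group.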
